A study of Mus musculus with 33 samples.

Results

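The contractile unit of heart muscle, the sarcomere, is bounded by Z-discs and centred on the M-band, and titin spans from one to the other. The 9 genes described here encode titin (Ttn), the Z-disc proteins alpha-actinin 2 (Actn2), cypher (Ldb3), calsarcin 1 (Myoz2), telethonin (Tcap) and nebulette (Nebl), the thick filament regulator cardiac myosin binding protein C (Mybpc3) and the M-band proteins myomesin 1 (Myom1) and myomesin 2 (Myom2). They were taken by symbol from a table of 14862 gene rows, and all 9 were present. Cardiomyocytes take their sarcomeres partly apart when they divide, with Z-disc and M-band proteins leaving the fibrils at different steps. The question asked of the counts was whether the transcripts of these genes were lower in cells rich in mitotic RNA.

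The cells came from the ventricles of mice carrying mAG-hGem, the green geminin probe of the FUCCI reporter, which accumulates from S phase until mitosis ends. Single cells with and without the green signal were collected by flow sorting from embryos (day 14.5, E14.5) and pups (day 5 after birth, P5). At E14.5 there were 10 positive and 11 negative cells and at P5 there were 6 of each, 33 in all, each from a transgenic reporter animal with no other allele or treatment named in the labels. The reporter marks passage through the cycle, not completed division. The labels name no animal, so each group stands for 1 sample, no test between groups was made, and intervals cover counting error only.

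Totals ran from 2.55 to 38.5 M reads (M stands for 1000000) per cell. The labels call every cell a cardiomyocyte accepted by PCR for Tnnt2. Summed CPM (counts per 1000000 reads of a cell) of 14 cardiomyocyte markers exceeded those of 4 other cell type lists in all 10 E14.5 positive cells, in 10 of 11 E14.5 negative cells and in 5 of 6 P5 positive cells, but in 0 of 6 P5 negative cells. The P5 positive cell L2P12 had 122 CPM of cardiomyocyte and 4650 CPM of endothelial markers, and the ratios of the 9 genes between P5 and E14.5 positive cells are therefore given with and without it. The E14.5 negative cell N10 had 46782 CPM of fibroblast and mural markers beside 23409 CPM of cardiomyocyte markers. The cells labelled P5 negative were led by endothelial markers (3 cells), red blood cell markers (2 cells) or fibroblast and mural markers (1 cell). The 2 led by red blood cell markers, L1N3 and L2N10, also had 3600 and 4295 CPM of endothelial markers. The P5 negative cells therefore serve here as a background and not as reporter negative cardiomyocytes.

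The genes lie on several chromosomes of the mm10 build, GRCm38. Ttn occupies chr2:76703980-76982547 on the minus strand and its longest annotated transcript is 107 kb, against 0.948 kb for Tcap at chr11:98383811-98384953. Mybpc3 lies at chr2:91118144-91136516 and Nebl at chr2:17343909-17731464. The others are Actn2 at chr13:12269426-12340760, Ldb3 at chr14:34526603-34588682, Myom1 at chr17:71002633-71126856, Myom2 at chr8:15057653-15133541 and Myoz2 at chr3:123006206-123035015. Counts per gene are not divided by transcript length, so levels are compared between groups for the same gene and not between genes. An annotated antisense gene covers 0.388% of the exonic bases of Ttn, and Myl12a on the opposite strand covers 1.98% of those of Myom1. Whether the counting used strand is not given in the sources used here.

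Promoters of 7 of the 9 genes were matched in RefSeq (GRCm38.p6), as the 250 bases before the annotated start cut back where an annotated exon intruded. The 4 below are shown because they pair a shared motif with opposite differences between P5 and E14.5. Ttn (chr2:76982548-76982797, minus strand) and Mybpc3 (chr2:91117894-91118143, plus strand) each hold a match to the MEF2 motif, whose factors drive muscle genes. Ldb3 (chr14:34588683-34588931, minus strand) and Myom1 (chr17:71019307-71019520, plus strand) each hold a CArG box, the motif of serum response factor. The Myom1 window lies inside the gene span given above, before an internal RefSeq start and not at the first base of that span. Capitals mark the matches, which in Myom1 also include the reverse complement of AGATAA.
Ttn: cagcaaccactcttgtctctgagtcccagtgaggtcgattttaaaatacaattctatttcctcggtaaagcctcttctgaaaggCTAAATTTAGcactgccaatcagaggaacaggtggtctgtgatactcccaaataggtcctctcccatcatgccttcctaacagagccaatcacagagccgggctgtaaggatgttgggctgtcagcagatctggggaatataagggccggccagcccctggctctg
Mybpc3: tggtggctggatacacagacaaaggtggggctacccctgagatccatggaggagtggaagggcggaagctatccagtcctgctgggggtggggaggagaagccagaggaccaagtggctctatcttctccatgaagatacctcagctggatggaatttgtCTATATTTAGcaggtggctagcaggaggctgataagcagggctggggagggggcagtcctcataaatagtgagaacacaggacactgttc
Ldb3: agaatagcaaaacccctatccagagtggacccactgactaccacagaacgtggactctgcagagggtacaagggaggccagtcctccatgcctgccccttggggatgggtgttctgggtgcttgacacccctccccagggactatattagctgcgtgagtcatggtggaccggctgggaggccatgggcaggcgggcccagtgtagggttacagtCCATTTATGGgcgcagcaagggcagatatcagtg
Myom1: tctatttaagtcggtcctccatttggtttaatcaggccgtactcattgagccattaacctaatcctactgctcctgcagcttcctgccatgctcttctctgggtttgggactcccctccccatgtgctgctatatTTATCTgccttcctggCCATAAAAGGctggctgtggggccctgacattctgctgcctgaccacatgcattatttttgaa

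Both strands were searched. The MEF2 match starts 166 bases before the start site in Ttn and 90 bases before it in Mybpc3, and the CArG match starts 35 bases before it in Ldb3 and 99 bases before it in Myom1. A MEF2 match was found in 2 of 7 genes, against 2.92% of 32851 RefSeq mouse promoter windows of 250 bases, and a CArG box in 3 of 7 (Ldb3, Myom1 and an alternative Nebl promoter), against 1.47%. CATTCC, the TEAD core, occurred in 1 of 7 (Nebl), against 12.6% of windows, and AGATAA in 2 of 7 (Myom1 and Nebl), against 9.99%. Nebl and Ldb3 have more than 1 annotated promoter, which gives them more bases to match. The Actn2 and Myoz2 windows held none of the 4 motifs. Of the pair with a MEF2 match Ttn was lower and Mybpc3 higher at P5, and of the printed pair with a CArG box Ldb3 was lower and Myom1 higher, both within 2-fold. A match describes letters in a window and not a bound site.

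The first comparison sets P5 against E14.5 among mAG-hGem positive cells. The 9 genes did not move as 1 block. Actn2, Myoz2, Mybpc3 and Myom2 were at least 2-fold higher at P5, Ttn and Nebl were at least 2-fold lower, and Ldb3, Myom1 and Tcap lay within 2-fold. Without L2P12, Tcap also passed 2-fold, and 5 genes were higher and 2 lower.

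Titin, the elastic filament that also sets sarcomere length, was lower at P5. Ttn CPM ran from 1991 to 5188 in E14.5 positive cells, with a median of 3623. At P5 it was 1393 in L1P5, 361 in L2P3, 1417 in L2P7, 2282 in L2P8, 1084 in L2P10 and 2.18 in L2P12. Only L2P8 reached the E14.5 range. The summed level was 1102 CPM (1095 to 1109, exact Poisson interval) against 3454 CPM (3445 to 3463), a log2 ratio of -1.65 (-1.66 to -1.64, Clopper-Pearson). The ratio was -1.24 without L2P12 and -2.48 without L2P8, which held 60.1% of the P5 Ttn counts.

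Among the Z-disc genes, Actn2, which crosslinks the thin filaments of neighbouring sarcomeres, was higher at P5. E14.5 positive cells had 24.8 to 164 CPM, with a median of 61.2. The P5 positive values were 191 in L1P5, 212 in L2P3, 376 in L2P7, 1149 in L2P8, 714 in L2P10 and 0.977 in L2P12. The 5 P5 cells led by cardiomyocyte markers thus all lay above the 10 E14.5 positive cells, although the E14.5 negative cell N30, at 307 CPM, reached into their range. Summed levels were 523 CPM (518 to 527) and 86.7 CPM (85.3 to 88.2), a log2 ratio of 2.59 (2.56 to 2.62). It was 2.995 without L2P12 and 1.62 without L2P8.

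Myoz2, which ties calcineurin to the Z-disc, stood at 2647 CPM (2637 to 2658) at P5 and at 772 CPM (768 to 777) at E14.5, a log2 ratio of 1.78 (1.77 to 1.79) that was 2.18 without L2P12. Single P5 values were 888 in L1P5, 5054 in L2P3, 2555 in L2P7, 3044 in L2P8, 4069 in L2P10 and 3.42 in L2P12. The embryonic positive cells spanned 474 to 1258 CPM around a median of 674, so L1P5 was the only P5 cell led by cardiomyocyte markers inside that range.

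Ldb3, a PDZ-LIM protein that holds alpha-actinin at the Z-disc, went the other way. It had 281, 393, 573, 511, 817 and 0.800 CPM in L1P5, L2P3, L2P7, L2P8, L2P10 and L2P12, against 200 to 2194 CPM, median 623, in E14.5 positive cells. The ranges overlapped. Summed levels of 411 CPM (407 to 415) and 781 CPM (776 to 785) gave a log2 ratio of -0.93 (-0.94 to -0.91), or -0.52 without L2P12. Leaving out L2P7, L2P8 or L2P10 instead took it just past 2-fold, to between -1.02 and -1.17.

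Tcap, the telethonin cap that binds the ends of titin, was scattered over both groups. P5 cells had 18.5 (L1P5), 46.5 (L2P3), 63.0 (L2P7), 147 (L2P8), 275 (L2P10) and 0.0889 CPM (L2P12), and E14.5 positive cells had 4.08 to 245 CPM with a median of 39.8. The log2 ratio was 0.65 (0.61 to 0.69), with 1.05 without L2P12 and 0.15 without L2P10, so whether it passed 2-fold depended on 1 cell.

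Nebl, the cardiac member of the nebulin family, was the member nearest to absence at P5. It had 9.04 CPM in L1P5, 0.240 in L2P7 and 0 in the other 4 P5 positive cells. In E14.5 positive cells it ranged from 0 to 225 CPM, with a median of 41.5. At least 10 CPM was reached in 7 of these 10 cells and in 0 of 6 P5 positive cells. L1P5 held 88.5% of the 26 P5 counts. The summed levels of 0.282 CPM (0.184 to 0.413) and 80.2 CPM (78.8 to 81.6) gave a log2 ratio of -8.15 (-8.77 to -7.60). With 0.5 count added it was -8.12, with -7.72 without L2P12 and -11.003 without L1P5. Equal weight for each cell gave -5.51, so its size depends on how the few P5 reads are weighted. Thinning to 1 depth gave -10.14, but this setting leaves out the shallower cells, L1P5 among them. The P5 negative cells, led by other lineages, had 0.0482 CPM as a background, with a read in 1 of 6 cells against 2 of 6 P5 positive cells, at median totals of 12.7 and 13.9 M.

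In the A-band, Mybpc3, which tunes crossbridge cycling and is a frequent site of cardiomyopathy mutations, was higher at P5. It reached 373 CPM in L1P5, 557 in L2P3, 1109 in L2P7, 1180 in L2P8, 2746 in L2P10 and 2.44 in L2P12. E14.5 positive cells had 266 to 920 CPM, median 389, so 3 of the P5 cells were above all of them and 2 were inside their range. Summed levels were 971 CPM (965 to 977) and 452 CPM (448 to 455), a log2 ratio of 1.10 (1.09 to 1.12). It was 1.51 without L2P12, 0.97 without L2P8 and 0.61 without L2P10, so the 2-fold difference rests on those 2 cells.

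The M-band pair differed in kind. Myom1, the myomesin found in all striated muscle, had 121, 95.5, 151, 150, 254 and 0.0889 CPM in L1P5, L2P3, L2P7, L2P8, L2P10 and L2P12, beside 32.1 to 177 CPM (median 67.1) in E14.5 positive cells. Its log2 ratio was 0.57 (0.53 to 0.61), or 0.98 without L2P12. Myom2, the isoform gene of adult heart and fast muscle, was near 0 at E14.5, with 4 counts in G2, 2 counts in G10 and none in the other 8 positive or in any of the 11 negative cells. At P5 it had 110 CPM in L2P3, 29.04 in L2P10, 21.6 in L2P7, 14.8 in L2P8 and 0 in L1P5 and L2P12. L1P5 is the shallowest library of all, at 2.55 M reads.

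The summed Myom2 level was 29.4 CPM (28.3 to 30.6) at P5 and 0.0380 CPM (0.0139 to 0.0826) at E14.5, a log2 ratio of 9.60 (8.47 to 11.05). With 0.5 count added it was 9.48, and 9.89 without L2P12, 8.35 without L2P3, 10.78 without G2 or 8.70 with equal weight for each cell. Of the reads of both myomesin genes, Myom2 took 19.99% (19.3 to 20.7%) in P5 positive cells, from 0 to 53.6% per cell, and 0.0479% (0.0176 to 0.104%) in E14.5 positive cells. In E14.5 negative cells it took 0 of 17749 reads, at most 0.0208%. Myom2 had no read in the 6 cells labelled P5 negative.

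**Figure D1:**
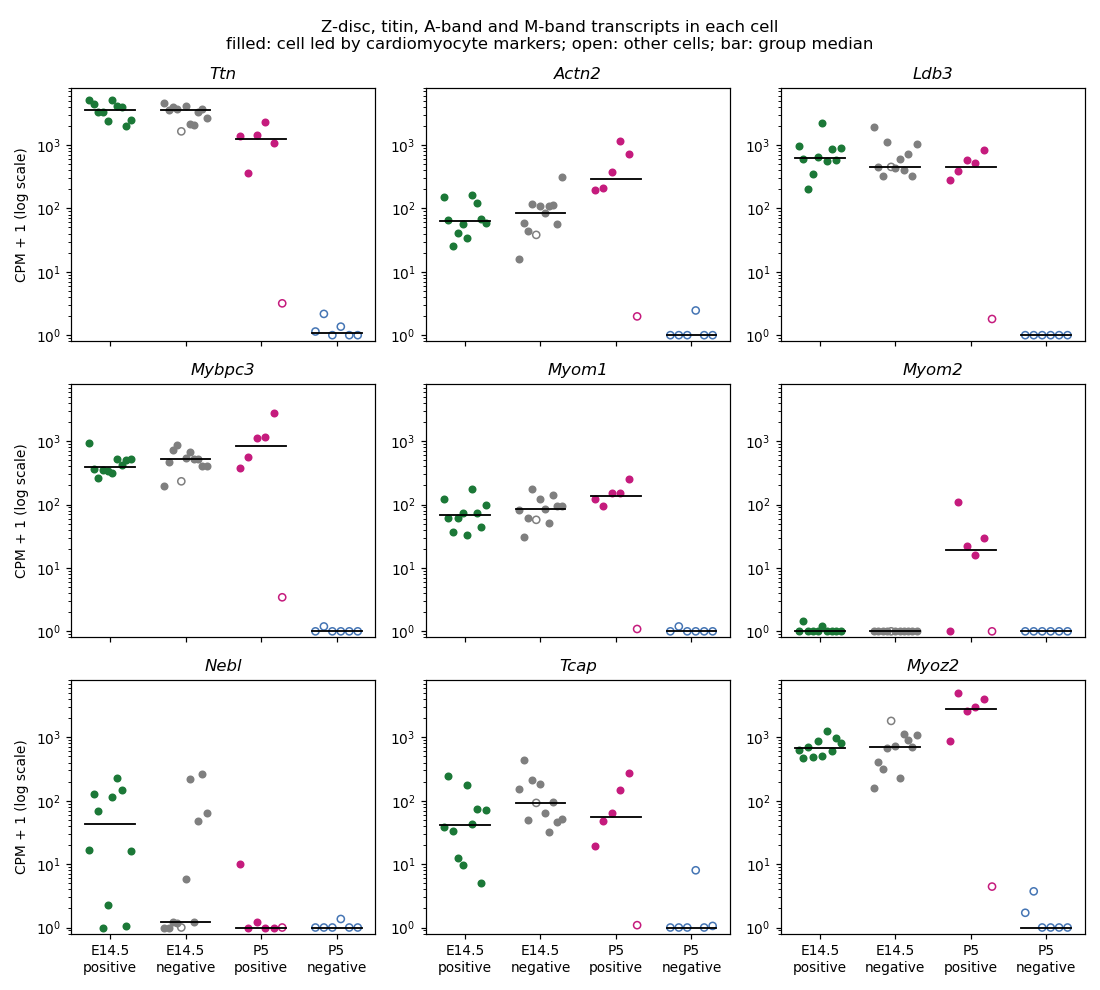
CPM + 1 of each gene on a log axis, 1 point per cell, in the 4 groups. Filled points are cells led by cardiomyocyte markers, open points are other cells and bars are group medians. Actn2 and Myoz2 sit higher and Ttn lower in P5 than in E14.5 positive cells, Myom2 is seen almost only in P5 positive cells, and the P5 negative cells and L2P12 are near 0 throughout.

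The table as a whole gives the background. Of 12262 genes that reached 10 counts, 40.9% were at least 2-fold lower and 30.3% at least 2-fold higher at P5, beside 2 and 4 of the 9. The median log2 ratio was 0.65 for the 9 genes and -0.39 for all genes. Without L2P12 the background was 49% lower and 24.5% higher, with medians of 1.05 for the 9 genes and -0.93 for all genes. Scaling by DESeq2 size factors moved the all-gene median up by 0.38, and with it Tcap to 1.03, and no member changed its direction.

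**Figure D2:**
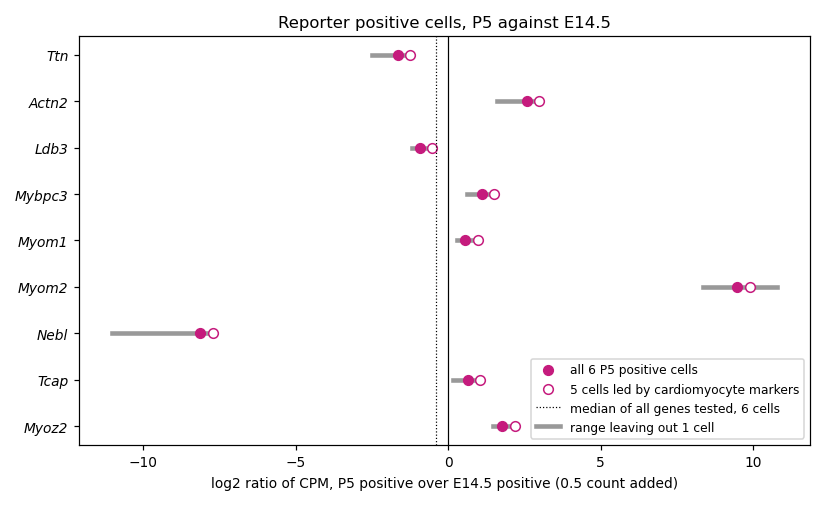
The log2 ratio of CPM, P5 positive over E14.5 positive, for each gene with 0.5 count added. Filled points use all 6 P5 cells, open points the 5 led by cardiomyocyte markers, grey lines span the values with 1 cell left out, and the dotted line is the all-gene median of -0.39. Every grey line stays on its side of 0, from Nebl (-8.12) to Myom2 (9.48).

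The make-up of the 9-gene reads also differed between the ages. Ttn supplied 59.9% of them in E14.5 positive cells (47.8 to 71.8% per cell) and 56.8% in E14.5 negative cells (37.9 to 72.6%), but 18.7% in P5 positive cells (5.29 to 42.5%). Myoz2 supplied 13.4%, 15.0% and 44.9%, Mybpc3 7.83%, 9.60% and 16.5%, and Actn2 1.504%, 1.85% and 8.86%, in the same order. Per cell, the highest Ttn share at P5 (L1P5) was below the lowest among E14.5 positive cells but not below that of N10. The single cell sums of the 9 genes overlapped widely, at 4167 to 8555 CPM in E14.5 positive cells and 3274 to 9989 CPM in the 5 P5 cells led by cardiomyocyte markers.

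**Figure D3:**
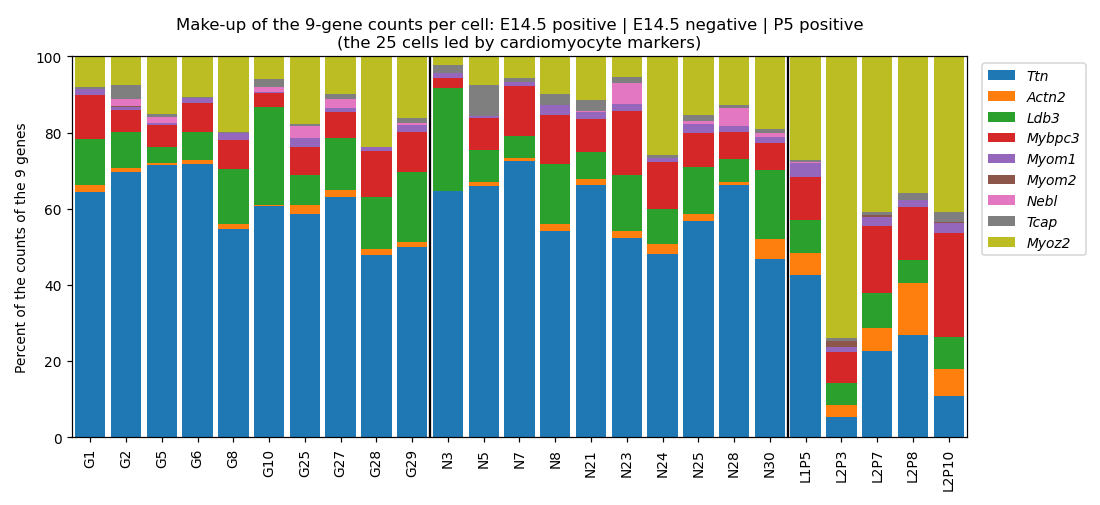
Percent of the reads of the 9 genes taken by each gene in the 25 cells led by cardiomyocyte markers, 1 bar per cell, with black lines between the groups. Blue (Ttn) fills 47.8 to 71.8% of E14.5 positive bars and at most 42.5% of P5 bars, where Myoz2 and Actn2 take more.

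Other sarcomere scaffold genes, from a list of 50 of which 46 were in the table and 43 had 10 counts, were split in the same comparison. Of the 43, 13 were at least 2-fold lower and 12 at least 2-fold higher, beside 40.9% and 30.3% of all genes. Their median log2 ratio was -0.36. The lowest by the naming rule were Pdlim3, the actinin-associated LIM protein, at -3.16 (11.4 against 101 CPM), Nexn, which encodes nexilin, at -2.63 (773 against 4776 CPM), Capzb, the beta subunit of CapZ, at -2.03 and Smpx at -1.44. Among the highest were Xirp2 at 10.79 (55.8 against 0.0316 CPM), Mypn, which encodes myopalladin, at 2.78 and Pdlim1 at 2.06. Without L2P12 the counts were 9 lower and 15 higher, beside 49% and 24.5% of all genes, and the scaffold median was 0.04. The named genes then stood at -2.76 (Pdlim3), -2.22 (Nexn), -1.76 (Capzb), -1.03 (Smpx), 11.05 (Xirp2, 0.5 count added), 3.19 (Mypn) and 1.88 (Pdlim1). Pdlim1 no longer met the naming rule without L2P12, since L2P8 held 64.1% of its remaining P5 positive reads. The P5 negative cells, led by other lineages, had 803 CPM of Pdlim1. Single cells moved Pdlim3 to -5.12 (without L2P7), Smpx to -2.19 (without L2P3) and Xirp2, which had 5 reads at E14.5, all in G1, to 14.02 (without G1) or 10.04 (without L2P3).

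The second comparison sets reporter positive against reporter negative cells at E14.5, where both groups were led by cardiomyocyte markers in all cells but N10. The positive cells were far richer in mitotic RNA. Their summed CPM of 55 G2/M genes ran from 4970 to 33094, with a median of 20901, against 1021 to 8936 and a median of 2549 in negative cells. The groups overlapped through N24, the negative cell with the most G2/M RNA. It also had 22870 CPM of 42 S phase genes, above the highest positive cell at 16948. The summed CPM of the 9 sarcomere genes overlapped almost fully, at 4167 to 8555 with a median of 5576 against 4091 to 7094 with a median of 5598.

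Gene by gene, 0 of the 8 genes with at least 10 counts were 2-fold lower and 0 were 2-fold higher in positive cells, where 29% of 12633 genes were 2-fold lower and 22.4% were 2-fold higher. The median log2 ratio was -0.17 for the 8 genes, from -0.71 to 0.37, and -0.16 for all genes. Without N10 the medians were -0.25 for the 8 genes and -0.12 for all genes. Ttn stood at 3454 against 2999 CPM (log2 ratio 0.20, 0.20 to 0.21), with 1637 to 4580 CPM in single negative cells. Ldb3 had the highest ratio, 0.37 (0.36 to 0.38), at 781 against 605 CPM, where single negative cells ran from 318 to 1912 CPM. Mybpc3 (452 against 507 CPM), Myom1 (79.2 against 90.8 CPM) and Myoz2 (772 against 791 CPM) had ratios of -0.17, -0.20 and -0.03. In each of these genes the cells of the groups overlapped over most of their range.

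Actn2 stood at 86.7 against 97.7 CPM, a ratio of -0.17 that became 0.15 without N30 and 0.08 within title numbers 1 to 10, so its sign was not stable. Myoz2 changed sign when any of G27, N10, N24 or N30 was left out, within -0.21 to 0.18, and with TMM factors it was at 0.01. Tcap had the lowest ratio, -0.71 (-0.74 to -0.67), at 61.8 against 101 CPM. Single values were 4.08 to 245 CPM (median 39.8) in positive and 30.8 to 441 CPM (median 91.4) in negative cells, and 2 positive cells but no negative cell were under 10 CPM. After each cell was thinned to 8671357 reads, which leaves out the shallower cells, the Tcap ratio was -1.38 and past 2-fold. The positive cell left out by thinning is G2, which had the highest Tcap of its group, 245 CPM. At full depth without G2 the ratio was -0.97.

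Titles of E14.5 cells carry numbers from 1 to 10 or from 21 to 30, which the labels do not explain, and depth differed with them (8.40 to 12.8 against 16.8 to 38.5 M reads in positive cells). Within numbers 1 to 10 the Tcap ratio was -1.19 and within 21 to 30 it was -0.41. The median of the 8 genes was -0.08 and -0.11. Nebl was the exception. All 5 negative cells numbered 1 to 10 were at 0 to 0.239 CPM, while the 6 numbered 21 to 30 had 0.214 to 262 CPM with a median of 55.1. In positive cells both number ranges held Nebl, up to 125 and up to 225 CPM.

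The Nebl ratio was accordingly 9.32 within numbers 1 to 10 (0.5 count added), -0.39 within 21 to 30, -0.18 over all cells and 0.39 with equal weight for each cell. It turned to 0.06, 0.25 or 0.57 when G28, N23 or N28 was left out. At least 10 CPM of Nebl was seen in 7 of 10 positive and 4 of 11 negative cells. After thinning this was 6 of 9 and 4 of 9 cells. Across the 11 negative cells Nebl had a Spearman rho of 0.64 with the total read count, and its part in this pattern was not tested.

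Among scaffold genes in this comparison, 6 of 41 were at least 2-fold lower and 2 of 41 at least 2-fold higher, with a median of -0.09. The shares over all genes were 29% and 22.4%. By the naming rule the lowest were Csrp3, the muscle LIM protein, at -0.92 (476 against 901 CPM), the formin Fhod3 at -0.66, the cochaperone Bag3 at -0.55 and the leiomodin Lmod2 at -0.54. The highest were the stress-responsive titin partner Ankrd1 at 0.66 (4954 against 3141 CPM), Pdlim1 at 0.64, Nexn at 0.60 and filamin C (Flnc) at 0.59. N10 held 36.9% of the Ankrd1 reads of negative cells, and without it the Ankrd1 ratio was 1.18, past 2-fold. Csrp3 was at -0.72 without N10 and at -1.03 without N28, Fhod3 was at -1.002 without G29, and Bag3 turned to 0.08 without N25.

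The relation to mitotic RNA was then read from cell to cell within the 10 E14.5 positive cells. Each correlation is a description over cells that share a reporter label and differ in depth, and carries no p. The sum of the 9 genes had a Spearman rho of -0.09 with the summed G2/M CPM (Pearson r -0.24 on log2(CPM + 1)), and -0.28 to 0.07 when 1 cell was left out. It was 0.20 with TMM factors and 0.71 with DESeq2 size factors, so its sign depends on the scaling. The median over the 9 genes was 0.07, from -0.13 to 0.35 with 1 cell left out and 0.32 with DESeq2 size factors. Of the 9 genes, 4 were below 0. Among 6303 genes with a mean of at least 10 CPM, the median was -0.13 and 62.1% were below 0. Myom2, 1 of the 4, has a mean of 0.0674 CPM in these cells and would not pass that minimum.

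Single genes pointed in different directions. The Spearman coefficient was -0.26 for Ldb3, -0.24 for Ttn, -0.13 for Tcap, 0.07 for Mybpc3, 0.18 for Actn2, 0.24 for Myom1 and 0.38 for Nebl, and the value of -0.54 for Myom2 rests on 6 counts. With DESeq2 size factors Ttn turned to 0.38 and Ldb3 to 0.16. Myoz2 was the only member above 0.5, with a rho of 0.71 (r 0.76). The G2/M-poorest cell, G2 (4970 CPM of G2/M), had 474 CPM of Myoz2, and the richest, G25 (33094 CPM), had 1258 CPM. Without these 2 cells rho was 0.43 (r 0.64), and leaving out 1 cell gave 0.60 to 0.83.

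The summed G2/M CPM itself had a rho of 0.70 with the read total in these cells, and Myoz2 had 0.62. Cells numbered 21 to 30 had 21434 to 33094 CPM of G2/M against 4970 to 27850 CPM in those numbered 1 to 10. Within the 6 cells numbered 1 to 10, Myoz2 kept a rho of 0.89 with G2/M, while Mybpc3 was at -0.77, Actn2 at -0.60, Tcap at -0.49 and Ttn at -0.20, and the median of the 9 genes was -0.26. The 4 positive cells numbered 21 to 30 are too few for a value. The part of depth in these relations was not tested.

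**Figure D4:**
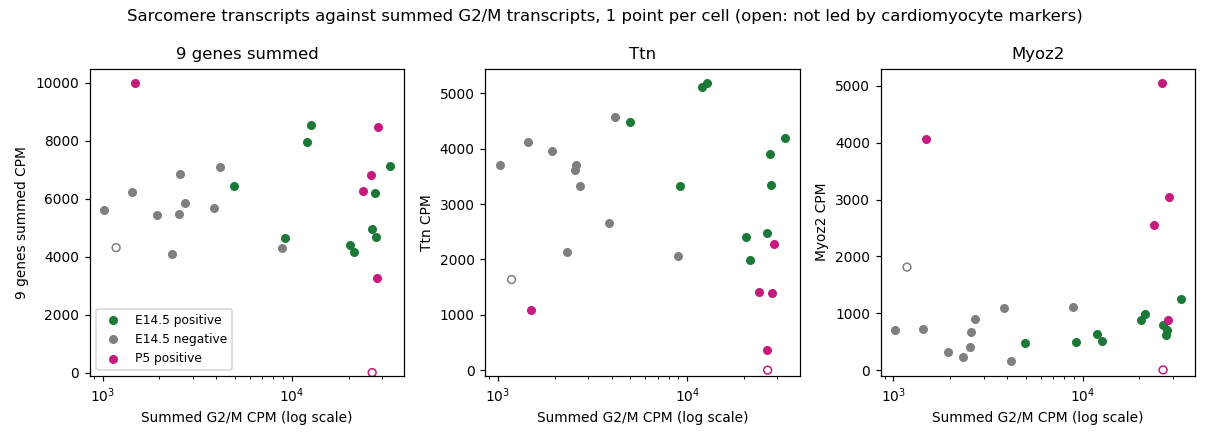
CPM of the 9 genes summed, of Ttn and of Myoz2 (linear vertical axes, panels from left to right) against the summed CPM of G2/M genes on a log axis, 1 point per cell. The 10 E14.5 positive cells spread from 4970 to 33094 CPM of G2/M and their 9-gene sums show little order along it (rho -0.09), their Myoz2 values are higher at the rich end (rho 0.71), and the P5 cell poor in G2/M (L2P10) has the highest 9-gene sum, 9989 CPM.

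In the 11 E14.5 negative cells, where G2/M RNA was low, the median rho was -0.03 and 5 of 8 genes were below 0, against 47.5% of 6547 genes. Ldb3 had 0.55 and Actn2 0.33. Without N3 and N24, the cells farthest from the G2/M median, these were 0.82 and 0.80, and the median rho was 0.28. Myoz2 had -0.01 over all 11 cells and 0.83 over the 6 numbered 21 to 30, and Ttn had -0.05 and -0.77.

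With the summed CPM of the S phase genes the median rho was -0.03 in positive cells, and Nebl (-0.53) and Myoz2 (-0.42) were lowest. There 6 of 9 genes were below 0, against 41.1% of all genes with a mean of at least 10 CPM, a minimum that Myom2 does not reach. In negative cells 2 of 8 were below 0 against 36.9% of all genes, and Actn2 (0.67) and Myoz2 (0.65) were highest. Myoz2 thus had opposite signs with S phase RNA in the 2 groups, a difference that was not tested. With G2/M RNA in positive cells, 62.1% of all genes had a rho below 0. Among 28 scaffold genes with enough reads there, 12 had a rho below 0, from -0.85 to 0.43 with a median of 0.03. The 14 cardiomyocyte markers had a median rho of 0.20 with G2/M RNA, with 5 below 0.

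**Figure D5:**
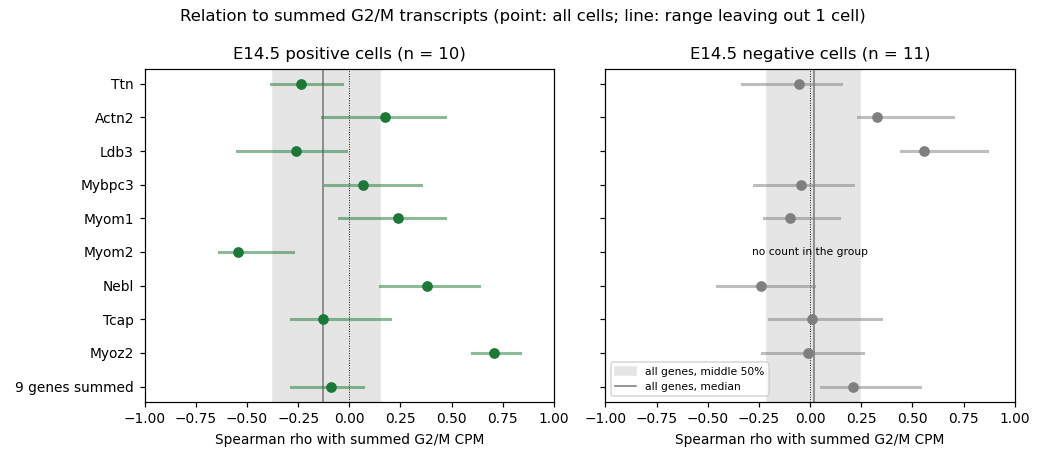
Spearman rho of each gene and of the 9-gene sum with the summed G2/M CPM, in 10 E14.5 positive cells (left) and 11 E14.5 negative cells (right). Points use all cells, lines span the values with 1 cell left out, the grey band holds the middle 50% of all genes and the grey line is their median. Myoz2 on the left, at 0.71, and Ldb3 on the right, at 0.55, lie farthest above the band. Nebl, Myom1 and Actn2 on the left and Actn2 on the right are also above it, and Myom2 on the left and Nebl on the right are below it.

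At P5 only 5 positive cells had cardiomyocyte markers in the lead, and they are given singly. L2P10 was poor in mitotic RNA, with 1492 CPM of G2/M and 444 CPM of S phase genes, and the other 4 had 23897 to 28685 CPM of G2/M. L2P10 had the highest sum of the 9 genes, 9989 CPM, against 6265 in L2P7, 6829 in L2P3, 3274 in L1P5 and 8478 in L2P8. It was also the highest P5 cell for Mybpc3, Myom1, Tcap and Ldb3. It was not the highest for Ttn and Actn2, where L2P8 led, or for Myoz2 and Myom2, where L2P3 led. It had no Nebl read.

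Mybpc3 in L2P10 was 2746 CPM, beside 373 to 1180 CPM in the 4 cells rich in G2/M RNA, and Tcap was 275 beside 18.5 to 147 CPM. The cardiomyocyte markers moved partly with these levels, at 90418 CPM in L2P10, 119153 in L2P8, 61443 in L2P7, 47230 in L2P3 and 27300 in L1P5, and their part was not tested. One cell cannot stand for a group. The plot of transcripts against G2/M RNA shows it apart from the others.

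Across the 21 E14.5 cells the 9 genes varied only loosely together. The median Spearman rho over their 36 pairs was 0.15, with 27 pairs above 0. Without Myom2, which was near 0 in these cells, the median was 0.15 and 23 of 28 pairs were above 0. Over all pairs of 2327 genes with a median of at least 50 CPM, it was 0.01, with 1412630 of 2706301 pairs above 0. Actn2 and Mybpc3 had the highest value, 0.66, with 0.83 in positive and 0.48 in negative cells. Actn2 and Myom1 followed at 0.62, with 0.79 and 0.57. The lowest was Ttn with Myoz2, at -0.49, with -0.50 in positive and -0.63 in negative cells. Ttn had a rho of -0.43 and -0.66 with the read total in the 2 groups, and Myoz2 had 0.62 and 0.43, and the part of depth in this opposite course was not tested.

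The genes most like the mean standardised level of the 9, among 2320 genes with a median of at least 50 CPM, were Myh7, the beta myosin heavy chain (Pearson r 0.67), Tpp2 (0.64), Cdc27 (0.64), Coa5 (0.63) and Aldoa (0.61), over 21 cells. The values are a ranking over cells that differ in depth, and the part of depth was not tested.

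The remaining comparisons set the cells labelled P5 negative against others, and therefore different cell types. Summed levels there were 0.940 CPM for Tcap, 0.229 for Myoz2, 0.193 for Actn2, 0.133 for Ttn, 0.0482 for Nebl and 0.0121 for both Mybpc3 and Myom1. Ldb3 and Myom2 had no read among 82.95 M reads, where 3 counts would be 0.0362 CPM. Against these cells P5 positive cells were at least 2-fold higher for 9 of 9 genes, with and without L2P12 (median log2 ratio 12.67 and 13.07), where 34.2% of all genes were higher and 39.4% lower. P5 negative cells were at least 2-fold lower than E14.5 negative cells for 8 of the 8 genes with 10 counts, where 41.7% of all genes were lower and 33.6% higher. Single cells decide these ratios: the log2 ratio of P5 positive over P5 negative cells went from 6.68 to 12.18 for Tcap, from 11.36 to 16.2 for Actn2 and from 2.41 to 5.37 for Nebl without L2N9, and from 13.46 to 15.19 for Myoz2 without L2N4. Nebl drops under 10 counts without L1P5, which leaves 8 genes. The traces came mostly from L2N4 and L2N9, and the 9 genes summed to at most 9.17 CPM in any P5 negative cell. L2P12, at 9.996 CPM, was close to that.

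By group, summed levels of Ttn and Ldb3 were highest in E14.5 positive cells, followed by E14.5 negative cells and then the P5 groups, positive before negative. For Mybpc3 and Myom1 the P5 positive cells came before the E14.5 negative and then the E14.5 positive cells, and the P5 negative cells came last. Actn2 and Myoz2 were also highest in P5 positive and lowest in P5 negative cells, but the order of the E14.5 groups between them turned in the alternatives given above. For Tcap the E14.5 negative level of 101 CPM stood above the P5 positive level of 96.9 CPM, which became 128 CPM without L2P12, so their order turned too. Nebl was higher in both E14.5 groups, whose order was not stable, than in both P5 groups. Myom2 was highest in P5 positive cells, with traces in E14.5 positive cells. The cells of both E14.5 groups overlapped in each of the other 8 genes, and so did P5 positive and E14.5 negative cells.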

How the data were processed

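Ventricular cells of mAG-hGem mice were sorted singly, their mRNA was amplified as antisense RNA, and TruSeq libraries were made, per the labels' protocols. The authors deposited raw read counts per gene for 33 cells. Per the submitters' processing notes, CASAVA 1.8.2, STAR 2.4.0j, HTSeq 0.6.1p1 and the build mm10 were used. The annotation, the counting options and the use of strand are not given in the sources used here. Amplified reads are not independent molecules, and isoforms of Ttn cannot be told apart in counts per gene.

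CPM were computed from each cell's total, and group levels from counts summed over cells, with exact 95% intervals. Ratios had 0.5 count added only for medians, for 2-fold calls and for values with cells left out, and genes needed 10 counts over both groups. For a group without reads, 3 counts in the whole group served as the floor. Each sample is 1 cell and no animal is named, so no test was made. Cells were assigned to a type by the highest summed CPM of 5 marker lists. The gene members, lists and naming rule (the 4 highest and 4 lowest scaffold genes with at least 50 CPM in the higher group and no cell above 50% of its counts, and the 5 most alike genes) were chosen with earlier results of these data known. One scaffold gene that the rule names is not reported here. Positions are from GENCODE M21. Alternatives were TMM (edgeR 4.0.16) and DESeq2 1.42.0 size factors, thinning, other totals, other minimum counts and leaving out each cell. No cells were near-identical (highest Pearson r 0.867, G1 with G2). Doublets were not called. The calculation was tested on simulated Poisson counts with the read totals of P5 and E14.5 positive cells. Of 200 changed genes among 14862, all drawn from genes with many reads, 95% were recovered to 0.1 on the log2 scale. The true ratio lay in 95.5% of their intervals. The simulated cells of a group differed by counting error only, so the result checks the arithmetic. It cannot show that the intervals cover the spread between real cells. Rows turned into calendar dates (22) stayed in the totals. R 4.3.3 and Python 3.11.15 were used.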

Additional observations from a re-analysis of the deposited data

Results flagged for a closer look

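Within groups of 6 and 10 cells, a cell was picked out where its gap to the next cell was a larger part of the group's range than Dixon's 95% limit allows. The 9 genes and their sum in 3 groups make 30 combinations, of which 12 were picked out. The limit is passed by chance in about 1 in 20 groups of normally distributed values, which sparse reads are not: a gene with reads in 1 cell of its group is always picked out. This is so for Actn2, Mybpc3, Myom1 and Nebl in P5 negative cells. The group of 11 cells was not examined.

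In E14.5 positive cells, Ldb3 reached 2194 CPM in G10, with the next cell at 956, and Mybpc3 reached 920 CPM in G1, with the next at 520. Myom2 in G2 was 0.476 CPM, which is 4 reads. In P5 positive cells, Myom2 was 110 CPM in L2P3, with the next cell at 29.04, and Nebl was 9.04 CPM in L1P5, with the next at 0.240.

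The other 7 were traces in the cells labelled P5 negative. L2N4 had 1.17 CPM of Ttn, 2.72 CPM of Myoz2 and 0.194 CPM each of Mybpc3 and Myom1. L2N9 had 1.45 CPM of Actn2, 0.363 CPM of Nebl and 6.99 CPM of Tcap, of which the next cell had 0.0593 CPM.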

How the results depend on the processing

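No median log2 ratio of the members changed its sign. For P5 over E14.5 positive cells it ran from 0.28 to 1.05 with 1 cell left out, and from 0.65 to 1.06 under other settings, so it passed 2-fold in some; 2 to 3 members were 2-fold lower and 3 to 5 higher. For E14.5 positive over negative cells it ran from -0.26 to -0.07 with 1 cell left out. In that comparison, 1 member was lower after thinning (Tcap), 1 lower and 1 higher within title numbers 1 to 10 (Tcap and Nebl) and 1 higher with no minimum count (Myom2), against 0 as reported. The median rho with G2/M RNA in positive cells ran from -0.13 to 0.35 with 1 cell left out, keeping its sign in 7 of 10, and from -0.26 (title numbers 1 to 10) to 0.32 (DESeq2 size factors) under other settings. The median rho with S phase RNA in positive cells ran from -0.37 (without G5) to 0.05 with 1 cell left out, and that with G2/M RNA in negative cells was 0.28 without N3 and N24. The cause was not tested. The values within title numbers and of scaffold genes with a cell left out were added after seeing the data. No paired analysis was possible because the result comes from no test and numbers name cells only. Restricting to cells led by cardiomyocyte markers was not run against P5 negative cells, none of which qualified. Nebl at P5 and Myom2 at E14.5 rest on few reads. L1P5, the shallowest library, held 23 of the 26 Nebl reads of P5 positive cells and no Myom2 read. The part of depth in these values was not tested.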
